A study of Rattus norvegicus with 9 samples.

Results

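Interferon-stimulated genes are the genes that cells switch on when interferon reaches their receptors, and 36 of them were followed here in sorted retinal microglia of diabetic and control rats. The members were taken by gene symbol from a written list of interferon-induced effectors, sensors and regulators. Of the 36, 35 had a row under exactly that symbol in a table of 28343 genes, and all 35 passed the filter on low counts with 11748 genes in all. The remaining one, Xaf1, a binding partner of the apoptosis inhibitor XIAP, appears in the table only under a symbol in capitals, and that row is described apart from the members.

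All rats were Dark Agouti, an inbred strain, and entered the study at 8 to 10 weeks of age after 12 hours without food. The 5 control libraries (numbered 1, 3, 4, 5 and 6) came from rats injected with citrate buffer, with normal blood glucose. The 4 diabetic libraries (numbered 1, 2, 4 and 5) came from rats given 55 mg/kg of streptozotocin, which destroys insulin-producing cells. These animals received 2 units of insulin whenever glucose went above 30 mmol/l. At 4 weeks after injection the retinas were dissociated with papain, and cells that bound a CD11b antibody were sorted. CD11b is an integrin chain of microglia that other myeloid cells of blood and tissue borders also carry. Dissociation and sorting can themselves change RNA levels. The labels do not tie each library to its own animal, so p-values measure the spread between these libraries. The RNA was amplified with a SmartSeq kit before Nextera XT library preparation, without molecular identifiers in the labels.

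Type I interferons bind the receptor formed by Ifnar1 and Ifnar2. The kinases Jak1 and Tyk2 then activate a complex that holds Stat2 and Irf9 and binds the interferon-stimulated response element (ISRE) in promoters. Interferon gamma binds Ifngr1 and Ifngr2, signals through Jak1 and Jak2, and acts on promoters at the gamma-activated site (GAS). Microglia carry both receptor pairs and respond to both kinds of interferon.

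Promoters were read to show which of these letters the members carry. RefSeq sequences on rat build GRCr8, from 250 bases before to 50 bases after each start, matched 27 of the 35 members by symbol. The ISRE core was searched as GAAANNGAAA and the GAS as TTCNNNGAA, on both strands, with overlapping matches allowed. The ISRE core was in 15 of the 27 (55.6%), against 1312 of all 33469 promoters (3.92%). The GAS was in 8 of the 27 (29.6%), against 2970 of all promoters (8.87%). Both were in 5 members, and 9 held neither (Stat2, Herc6, Trim25, Mx1, Oasl, Cmpk2, Ifi35, Parp9 and Cd274). A match is a string of letters, not a measured binding site.

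A first set of windows shows a shared arrangement. In Irgm, Igtp and Parp14 the GAS ended exactly 2 bases before the ISRE core, a spacing found in 8 of all promoters (0.0239%). Capitals mark the motifs, and each window runs 5′ to 3′ along the strand of its gene.
Parp14, chr11:78408013-78408082, plus strand: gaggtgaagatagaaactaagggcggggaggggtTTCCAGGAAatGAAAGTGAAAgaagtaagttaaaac
Igtp, chr10:42874899-42874968, plus strand: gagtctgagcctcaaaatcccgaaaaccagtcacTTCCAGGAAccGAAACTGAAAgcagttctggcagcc
Irgm, chr10:33742588-33742657, minus strand: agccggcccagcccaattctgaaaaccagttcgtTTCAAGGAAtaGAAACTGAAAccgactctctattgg

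A second set holds the other 3 members with the smallest p-values in the comparison of the groups (Gbp2, Gbp5 and Ifih1) and members of the 2 library patterns described further on (Irf7, Ifit3, Oas1a and Irf1). Only promoters with a motif are shown, and Mx1, Oasl and Cd274, which follow the same patterns, held neither. In Gbp2, Gbp5, Irf7 and Ifit3 the ISRE core lies on the opposite strand, so its reverse complement is in capitals. Oas1a holds overlapping ISRE cores, and Irf1 holds a GAS in place of an ISRE core.
Gbp2, chr2:234005651-234005720, plus strand: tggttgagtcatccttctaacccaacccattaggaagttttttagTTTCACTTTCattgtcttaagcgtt
Gbp5, chr2:233910898-233910967, plus strand: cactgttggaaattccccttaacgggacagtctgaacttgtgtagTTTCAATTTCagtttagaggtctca
Ifih1, chr3:67684003-67684072, minus strand: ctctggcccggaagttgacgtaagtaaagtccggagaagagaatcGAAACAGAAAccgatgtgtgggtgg
Irf7, chr1:205800068-205800137, minus strand: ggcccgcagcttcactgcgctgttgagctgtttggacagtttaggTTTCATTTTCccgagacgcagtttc
Ifit3, chr1:241527237-241527306, plus strand: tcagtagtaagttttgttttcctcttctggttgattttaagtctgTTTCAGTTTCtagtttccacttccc
Oas1a, chr12:41330386-41330455, plus strand: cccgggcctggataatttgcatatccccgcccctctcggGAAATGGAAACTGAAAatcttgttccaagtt
Irf1, chr10:38417747-38417816, plus strand: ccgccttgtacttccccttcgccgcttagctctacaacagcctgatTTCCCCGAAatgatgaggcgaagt

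**Figure D1:**
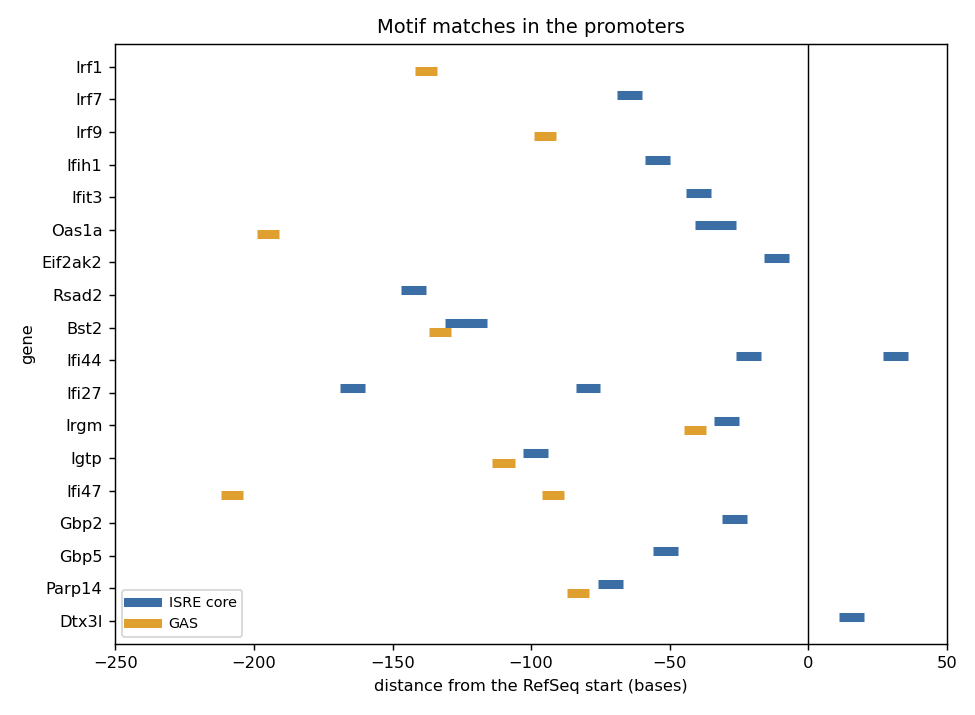
Positions of motif matches in the 18 member promoters that held at least 1, with the distance from the RefSeq start on the horizontal axis in bases, the ISRE core in blue and the GAS in orange. All ISRE cores lie upstream of the start except those of Dtx3l and one of Ifi44, and the pair of motifs lies side by side in Irgm, Igtp and Parp14.

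The libraries held 9156591 to 11332823 counts in the control group and 6228756 to 9629829 in the diabetic group. Levels are given as normalised CPM, that is, counts scaled to a common library size with TMM factors. Summed over 9 microglia markers the level was 24228 to 27978 CPM in control and 22995 to 24409 CPM in diabetic libraries. Because the samples are bulk RNA, fewer cells of a type and less RNA per cell cannot be told apart in any value below.

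The main question was whether these genes differ between diabetic and control microglia. No member passed an adjusted p of 0.05 in the edgeR quasi-likelihood test, adjusted over all genes by the Benjamini-Hochberg method, where 8 genes of 11748 did (0.0681%). Adjusted p-values of the members ran from 0.186 to 0.949. At an unadjusted p below 0.05, 5 members (14.3%) were lower in diabetic microglia, against 10.0% of all genes, and 0 were higher, against 8.94%. The 5 were the ADP-ribosyltransferase gene Parp14, the GTPase genes Igtp, Gbp2 and Gbp5, and the RNA sensor gene Ifih1. The same count was 7 (6 lower, 1 higher) by the DESeq2 Wald test and 2 (both lower) by limma-voom, and neither called a member after adjustment. By edgeR it was 2 without control 4, control 6, diabetic 2 or diabetic 4 and 3 without diabetic 1. The split by direction also moved: without diabetic 5 it was 4 (2 lower, 2 higher), and with the replicate number as a block 4 (1 lower, 3 higher). The share of all genes at that threshold, both directions together, moved as well. It was 18.95% in the main fit, 14.66% by DESeq2, 17.69% by limma-voom and 9.61% with the block. It was 14.47%, 15.7%, 14.9% and 12.78% without control 4, control 6, diabetic 2 and diabetic 4. Without diabetic 1 and diabetic 5 it was 15.09% and 19.35%. Only numbers 1, 4 and 5 occur in both groups, so control 3, control 6 and diabetic 2 do not inform the block fit. Of 18 alternative settings, an unadjusted p below 0.05 was reached in 17 for Parp14, 12 for Igtp, 10 for Gbp2, 7 for Gbp5 and 6 for Ifih1. The median log2 fold change (diabetic minus control) of the 35 was -0.23, against 0.0017 for all genes, and 21 members (60.0%) lay below 0, against 49.7%. The median rested on single libraries: without control 3 it was 0.015, and without diabetic 5 it was -0.017.

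Igtp was the only member whose groups did not overlap, 1 of 35 against 4.16% of all genes that were lower without overlap. No member was higher without overlap, against 4.27% of all genes. With upper-quartile factors, or with none, no member was free of overlap, and the share of all genes was not counted there.

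**Figure D2:**
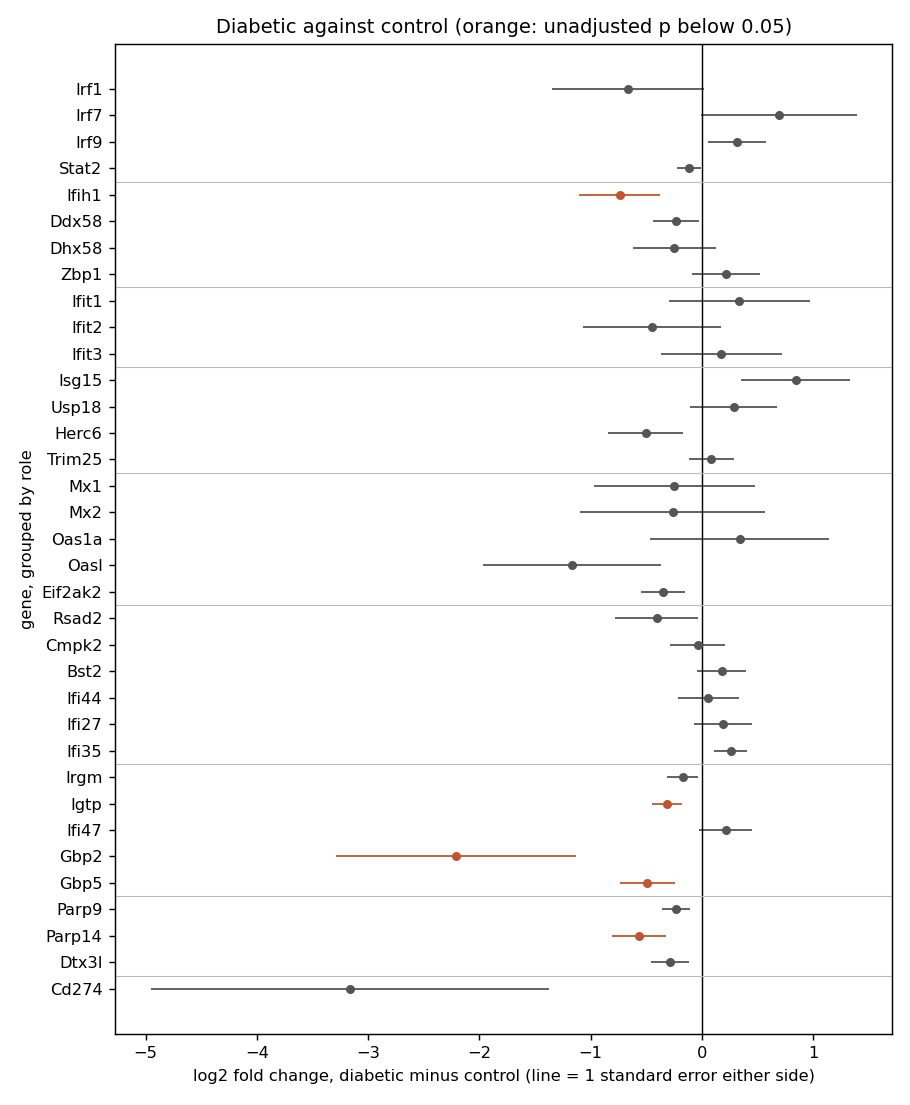
Log2 fold change of each member, diabetic minus control, with a line of 1 standard error to either side, grouped by role. Orange marks the 5 members at an unadjusted p below 0.05, all lower, and the longest lines belong to Cd274 (-3.16) and Gbp2 (-2.21).

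Among the transcription factors, Irf1, which interferon gamma induces through its GAS, was at 73.1, 77.7, 319, 139.7 and 481 CPM in controls 1, 3, 4, 5 and 6. It was at 131, 125, 89.1 and 204 CPM in diabetic 1, 2, 4 and 5. Controls 4 and 6 stood above every other library, and the diabetic values fell inside the control range. On the log2 scale Irf1 differed by -0.67 ± 0.68 (SE, edgeR quasi-likelihood adjusted p = 0.588), and without controls 4 and 6 it was 0.50.

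Irf7, the factor that amplifies type I interferon production, followed other libraries. It was at 53.9, 88.2, 40.7, 28.6 and 37.0 CPM in the controls, in the same order, and at 192, 61.3, 49.4 and 18.9 CPM in the diabetic libraries. Diabetic 1 was the highest and diabetic 5 the lowest of all, a 10.2-fold range within the group. Irf7 had a log2 fold change of 0.70 ± 0.70 (SE, edgeR quasi-likelihood adjusted p = 0.579) and turned to -0.21 without diabetic 1.

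Stat2 and Irf9, parts of the complex that binds the ISRE, were steadier. Stat2 was at 233, 272, 209.8, 221 and 219 CPM in controls and at 233, 191, 206 and 223 CPM in diabetic libraries, and its log2 fold change was -0.11 ± 0.10 (SE). Irf9 ranged from 58.5 to 136 CPM in controls, lowest in controls 4 and 6, and from 104 to 142 CPM in diabetic libraries.

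Of the 4 sensors, Ifih1 (MDA5, a receptor for long double-stranded RNA) was lower at an unadjusted p below 0.05. It was at 17.9, 33.4, 51.2, 22.4 and 38.5 CPM in controls and at 22.9, 20.03, 11.5 and 23.4 CPM in diabetic libraries. Controls 4, 6 and 3 lay above all diabetic libraries, while controls 1 and 5 lay among them. Its log2 fold change was -0.74 ± 0.36 (SE, edgeR quasi-likelihood adjusted p = 0.2497), and without controls 4 and 6 it was -0.33 (adjusted p = 0.583).

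The remaining sensors were Ddx58 (RIG-I), Dhx58 (LGP2) and Zbp1, a receptor for Z-form nucleic acid. Ddx58 was at 43.1 CPM in control 3 and at 20.9 to 26.9 CPM in all other libraries. Dhx58 was at 99.3 CPM in control 3, against 44.99 to 55.0 CPM in the other controls and 24.4 to 77.1 CPM in diabetic libraries. Zbp1 reached 26.5 CPM in control 3 and 28.6 CPM in diabetic 1, and lay at 8.89 to 18.4 CPM elsewhere. Their log2 fold changes lay between -0.25 and 0.22, with quasi-likelihood adjusted p-values of 0.513 to 0.729.

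The Ifit genes, whose proteins bind viral RNA, sit side by side on chromosome 1 of Rnor6. Ifit2 spans 252894663 to 252900726, Ifit3 starts 5507 bases further on and Ifit1 starts 32729 bases beyond Ifit3, all on the plus strand. The 3 genes peaked in different libraries. They are related, so reads may be shared between them.

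Ifit1 was at 19.2, 50.7, 15.7, 8.57 and 10.4 CPM in controls and at 49.5, 25.6, 14.3 and 16.4 CPM in diabetic libraries. Control 3 and diabetic 1 were about equal and stood above the rest. Ifit2 was highest in control 4 (189.5 CPM) and control 6 (127 CPM), against 35.4 to 91.7 CPM in the other controls and 28.5 to 111 CPM in diabetic libraries. Ifit3 was highest in diabetic 1 (106 CPM), then in control 6 (78.1 CPM) and control 4 (74.8 CPM), and lowest in control 5 (15.1 CPM). Fold changes of the family on the log2 scale were 0.34, -0.45 and 0.18 for Ifit1, Ifit2 and Ifit3, with standard errors of 0.55 to 0.63.

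The ISG15 system is a ubiquitin-like modifier (Isg15), a protease that removes it and damps receptor signalling (Usp18), a ligase that attaches it in rodents (Herc6) and a ubiquitin ligase that activates RIG-I (Trim25). Isg15 had the largest positive fold change of the 35. It was at 9.83, 16.3, 12.7, 5.25 and 11.4 CPM in controls and at 41.1, 12.1, 12.3 and 14.01 CPM in diabetic libraries. Diabetic 1 lay above all others, while the other 3 diabetic libraries lay within the control range. Isg15 had a log2 fold change of 0.84 ± 0.49 (SE, edgeR quasi-likelihood adjusted p = 0.319), and 0.20 without diabetic 1.

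Usp18 reached 42.0 CPM in control 3 and 51.0 CPM in diabetic 1, while the other controls had 17.8 to 22.7 CPM and the other diabetic libraries 15.4 to 28.7 CPM. Herc6 ran from 14.4 to 29.3 CPM in controls and from 7.97 to 21.7 CPM in diabetic libraries, a log2 fold change of -0.51 ± 0.34 (SE). Trim25 kept within 10.1 to 20.2 CPM in all 9 libraries.

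Mx1 and Mx2 encode dynamin-like GTPases that block viruses, and the pair is similar enough for reads to be shared. Mx2 (Rnor6 chromosome 11, 38035450 to 38059577, plus strand) was at 104, 403, 87.6, 64.5 and 80.5 CPM in controls and at 246, 156, 61.9 and 29.2 CPM in diabetic libraries. Control 3 was 4.80-fold above the median of the other controls, and diabetic 1 was 3.98-fold above that of the other diabetic libraries. The log2 fold change of Mx2 was -0.26 ± 0.83 (SE) and it was 0.55 without control 3. Mx1 followed the same libraries, with 263 CPM in control 3 and 203 CPM in diabetic 1, while the other controls had 54.2 to 101 CPM and the other diabetic libraries 30.3 to 127 CPM.

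Oas1a, an oligoadenylate synthetase that activates RNase L, was the scarcest per length of the 24 members with an exon length, with a mean of 2.998 CPM per kilobase of exon. Its level was 4.44, 13.2, 2.58, 2.89 and 3.10 CPM in controls and 13.6, 8.99, 3.19 and 0.801 CPM in diabetic libraries. Diabetic libraries differed 17.0-fold among themselves, from 138 counts in diabetic 1 to 8 in diabetic 5, where counting error is large. The group difference of Oas1a in log2 was 0.34 ± 0.80 (SE).

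Its relative Oasl did not follow it. Oasl (chromosome 12, 47444104 to 47456894, minus strand) was at 18.1, 35.1, 86.1, 17.9 and 144 CPM in controls, highest in controls 4 and 6, and at 35.4, 31.6, 14.5 and 24.4 CPM in diabetic libraries. For Oasl the log2 fold change was -1.17 ± 0.80 (SE, edgeR quasi-likelihood adjusted p = 0.397) and 0.16 without controls 4 and 6. Eif2ak2, the kinase PKR that halts translation on double-stranded RNA, was at 66.6 to 141 CPM in controls, highest in control 3, and at 68.2 to 88.9 CPM in diabetic libraries (log2 fold change -0.35, SE 0.20, quasi-likelihood adjusted p = 0.315).

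**Figure D3:**
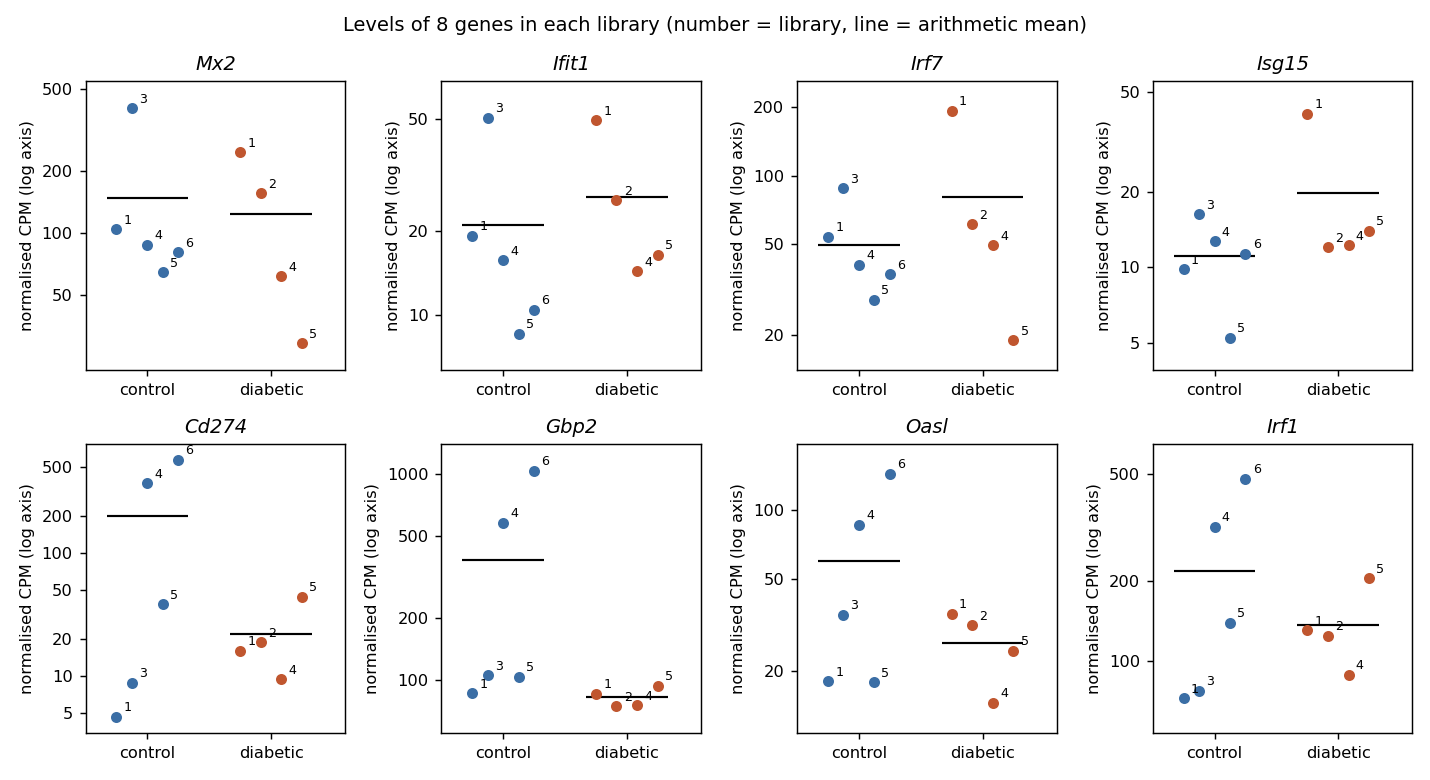
Normalised CPM on a log axis in each library for 8 members, with control libraries in blue, diabetic libraries in orange, the library number beside each point and a line at the arithmetic mean. In the upper row control 3 or diabetic 1 is highest, as for Mx2 with 403 and 246 CPM. In the lower row controls 4 and 6 are highest, as for Gbp2 with 580.1 and 1038 CPM.

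Among the other antiviral effectors, Ifi27, a small mitochondrial protein gene, was the most abundant per length of the same 24 members (417 CPM per kilobase of exon). It was at 322, 414, 282, 242 and 305 CPM in controls and at 395, 359, 484 and 191 CPM in diabetic libraries, so that the diabetic group held both its highest and its lowest value. Ifi27 had a log2 fold change of 0.19 ± 0.26 (SE, edgeR quasi-likelihood adjusted p = 0.691).

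Rsad2 (viperin) and the nucleotide kinase gene Cmpk2 are neighbours on chromosome 6, 14085 bases apart on opposite strands. Rsad2 ran from 9.83 to 29.8 CPM in controls and from 8.61 to 21.9 CPM in diabetic libraries, and Cmpk2 from 17.6 to 32.2 CPM and from 16.0 to 36.4 CPM. Both were highest in control 3 and diabetic 1 within their groups. Ifi35, whose protein pairs with Nmi, was at 41.6 to 54.3 CPM in controls and 44.8 to 67.5 CPM in diabetic libraries (log2 fold change 0.26, SE 0.15, quasi-likelihood adjusted p = 0.306). Bst2 (tetherin) and Ifi44 had log2 fold changes of 0.18 and 0.06. The row in capitals for Xaf1 held 7 to 52 counts per library, with 52 in control 3, 37 in diabetic 1 and 50 in diabetic 2, and a log2 fold change of 0.83 ± 0.53 (SE, edgeR quasi-likelihood adjusted p = 0.364).

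The immunity-related GTPases and guanylate-binding proteins, which attack the vacuoles of intracellular pathogens, held 3 of the 5 members at an unadjusted p below 0.05. Gbp2 (chromosome 2, 248276709 to 248293784, plus strand) was at 86.6, 106, 580.1, 104 and 1038 CPM in controls and at 86.1, 74.9, 75.6 and 94.0 CPM in diabetic libraries. Controls 4 and 6 lay far above the rest, and their mean was 8.19-fold that of the other controls. For Gbp2 the log2 fold change was -2.21 ± 1.08 (SE, edgeR quasi-likelihood adjusted p = 0.243). Without controls 4 and 6 it was -0.27 (edgeR quasi-likelihood adjusted p = 0.307). The unadjusted quasi-likelihood p of Gbp2 was 0.0399 there and 0.0401 with all libraries, so the size of the fold change moved more than the p-value.

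Gbp5, which lies 79548 bases before Gbp2 on the same strand, was also highest in controls 6 and 4, at a smaller scale. It was at 37.0, 31.0, 57.2, 40.1 and 71.9 CPM in controls and at 30.9, 32.0, 35.9 and 36.04 CPM in diabetic libraries. Control 3 lay among the diabetic libraries, and the log2 fold change of Gbp5 was -0.49 ± 0.25 (SE, edgeR quasi-likelihood adjusted p = 0.261). Without controls 4 and 6 it was -0.11 (edgeR quasi-likelihood adjusted p = 0.741).

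Igtp, an immunity-related GTPase gene, was at 90.5, 90.4, 111, 96.8 and 128 CPM in controls and at 86.8, 87.5, 83.4 and 75.5 CPM in diabetic libraries. All 4 diabetic libraries lay below all controls, with 90.4 against 87.5 CPM at the closest. The log2 fold change of Igtp was -0.31 ± 0.14 (SE, edgeR quasi-likelihood adjusted p = 0.197), and -0.16 without controls 4 and 6 (adjusted p = 0.468).

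Its relatives did not share this order. Irgm was at 56.9 to 71.0 CPM in controls and 40.8 to 62.6 CPM in diabetic libraries, and its log2 fold change was -0.17 ± 0.14 (SE). Ifi47, which lies 56064 bases from Irgm on chromosome 10, was at 82.2 and 97.0 CPM in controls 6 and 4 and at 145 to 175 CPM in the other controls. Diabetic libraries had 112 to 176 CPM of Ifi47, a log2 fold change of 0.22 ± 0.24 (SE). Related members of this family can share reads.

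Parp14, Parp9 and Dtx3l encode an ADP-ribosyltransferase and a pair of partners in one ubiquitin ligase complex, and all 3 had negative fold changes. Parp14 had the smallest p of the 35. It was at 60.4, 93.5, 77.5, 106 and 77.6 CPM in controls and at 60.8, 66.8, 34.1 and 62.0 CPM in diabetic libraries. The controls other than control 1 lay above all diabetic libraries, and diabetic 4 was the lowest. For Parp14 the log2 fold change was -0.57 ± 0.24 (SE, edgeR quasi-likelihood adjusted p = 0.186). Over the alternative settings its adjusted p ran from 0.0940 to 0.496.

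Parp9 and Dtx3l start 1128 bases apart on opposite strands of chromosome 11. Parp9 was at 146, 188, 149, 142 and 148 CPM in controls and at 151, 136, 127 and 112 CPM in diabetic libraries, and its log2 fold change was -0.23 ± 0.13 (SE, edgeR quasi-likelihood adjusted p = 0.289). Only diabetic 1 reached the control range. Dtx3l was at 27.2 to 41.5 CPM in controls and 22.2 to 32.1 CPM in diabetic libraries (log2 fold change -0.29, SE 0.17).

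Cd274 encodes PD-L1, the checkpoint ligand that restrains T cells, and had the widest spread of the 35. It was at 4.63, 8.77, 372, 38.2 and 576 CPM in controls and at 16.0, 18.7, 9.41 and 44.2 CPM in diabetic libraries. The controls differed 124-fold among themselves, with controls 1 and 3 below all diabetic libraries and controls 4 and 6 far above them. The log2 fold change of Cd274 was -3.16 ± 1.79 (SE, edgeR quasi-likelihood adjusted p = 0.308), and without controls 4 and 6 it was 0.38 (adjusted p = 0.883).

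The members varied more between libraries of 1 group than genes in general. The median SD of log2 CPM was 0.50 for members and 0.26 for all genes in controls, and 0.49 and 0.21 in diabetic libraries. The highest control was at least 2-fold above the lowest for 24 of 35 members (68.6%, against 29.7% of all genes), and the same held in diabetic libraries for 19 (54.3%, against 19.6%). No test was run on these shares, since genes are not independent replicates.

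**Figure D4:**
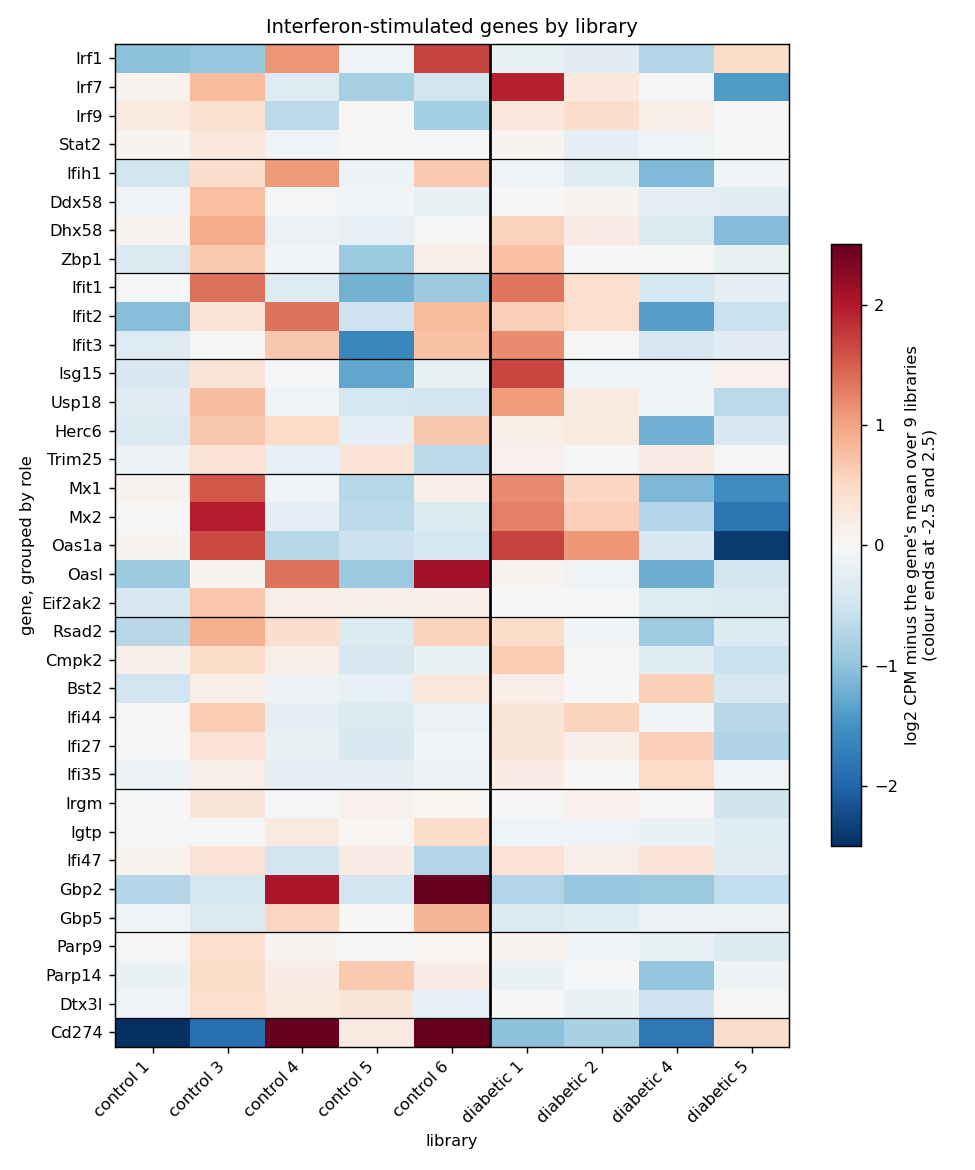
Log2 CPM of each member minus its mean over the 9 libraries, with genes in rows by role and libraries in columns, control on the left of the thick line. Control 3 and diabetic 1 are red for most rows, diabetic 5 is mostly blue, and controls 4 and 6 are red for Irf1, Ifih1, Ifit2, Ifit3, Oasl, Gbp2, Gbp5 and Cd274.

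Control 3 and diabetic 1 often held the highest value of their group. Within the controls 23 of 35 members (65.7%, against 20.7% of all genes) were highest in control 3, and within the diabetic group 18 (51.4%, against 20.9%) were highest in diabetic 1. Both held for 15 members (42.9%, against 4.95%), namely Irf7, Stat2, Dhx58, Zbp1, Ifit1, Isg15, Usp18, Mx1, Mx2, Oas1a, Eif2ak2, Rsad2, Cmpk2, Ifi47 and Parp9. Diabetic 5 held the lowest diabetic value for 19 members (54.3%, against 25.2%). The median deviation of a member from its own mean on the log2 scale was 0.39 in control 3 and 0.18 in diabetic 1, and it was -0.34 in diabetic 5 and -0.31 in diabetic 4.

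The size of this pattern differed among members. Control 3 was at least 2-fold above the median of the other controls for 6 members, namely Irf7, Ifit1, Usp18, Mx1, Mx2 and Oas1a (17.1%, against 2.04% of all genes). Diabetic 1 was at least 2-fold above the median of the other diabetic libraries for those 6 and for Ifit2, Ifit3 and Isg15 (25.7%, against 4.28%).

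Another set was highest in controls 4 and 6. Their mean was at least 2-fold that of the other controls for Irf1, Ifit2, Ifit3, Oasl, Gbp2 and Cd274 (17.1%, against 5.40% of all genes). Both libraries lay above all other controls for these 6 and for Ifih1, Igtp and Gbp5, 9 members in all (25.7%, against 21.3%). Of the 5 members at an unadjusted p below 0.05, all but Parp14 were among these 9. High controls make a lower diabetic level more likely, so this overlap is partly built in. Its share over all genes was not counted. The ISRE core was in 8 of 16 promoters of members highest in control 3 among the controls, and in 7 of 11 of the others.

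**Figure D5:**
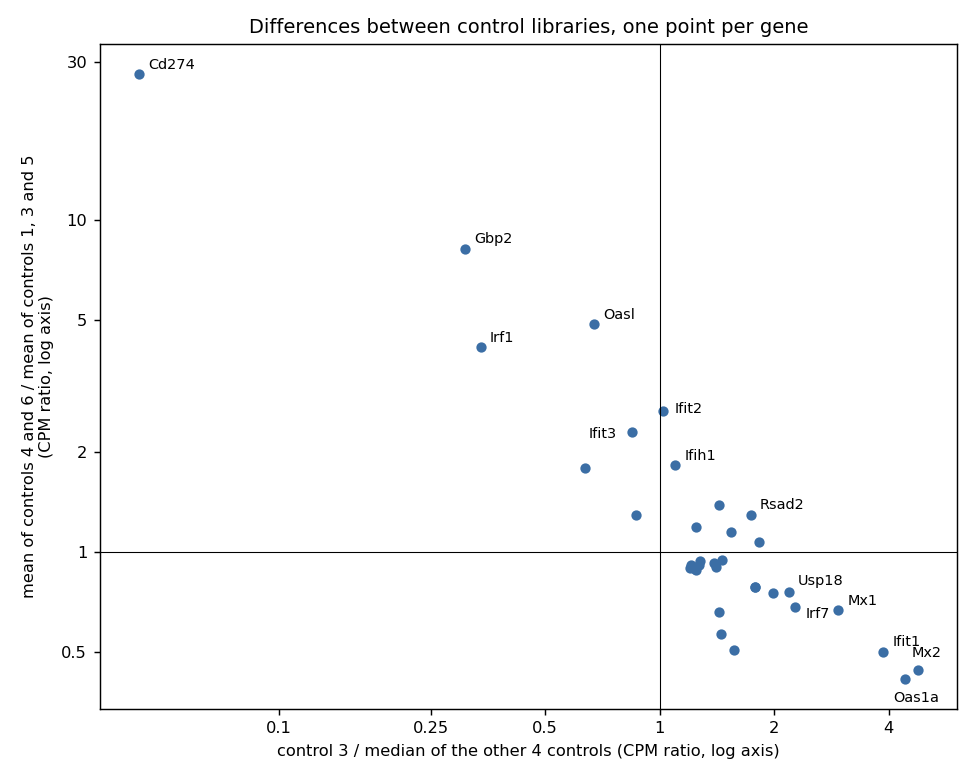
Each point is a member, with the ratio of control 3 to the median of the other controls on the horizontal axis and the ratio of the mean of controls 4 and 6 to that of controls 1, 3 and 5 on the vertical axis, both on log axes. Mx2, Oas1a and Ifit1 lie at the lower right, and Cd274, Gbp2, Oasl and Irf1 at the upper left. Control 3 enters both axes, so part of the slope is built in.

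Some other gene lists also differed between these libraries. The summed level of 9 markers of blood and border myeloid cells was 688 CPM in control 3, where the other controls had 325 to 472 CPM, and 1330 CPM in diabetic 1, where the other diabetic libraries had 594 to 957 CPM. Of these markers, the monocyte receptor gene Ccr2 had no count in any library. The 12 lymphocyte markers summed to 8.25 CPM in control 3 and to 1.55 to 2.74 CPM in the other controls. In diabetic 1, 2, 4 and 5 they summed to 2.97, 3.17, 4.47 and 0.901 CPM, so diabetic 1 was not the highest, and Cd3d, Cd3g, Nkg7 and Ms4a1 had no count in any library. The 8 markers of inner retinal neurons summed to 28.6 CPM in control 3, the lowest of all libraries, and to 148 CPM in diabetic 1, the highest. Immediate-early and stress genes of the cell isolation response, 16 with a row of 17 listed, summed to 32680 and 49896 CPM in controls 4 and 6 and to 4544 to 10143 CPM in the other controls, lowest in control 3. In diabetic libraries they summed to 13259 to 21746 CPM. Markers of Muller glia and astrocytes summed to 2025 to 2289 CPM in controls and to 1773 to 1900 CPM in diabetic libraries. Photoreceptor markers were lowest in control 3 (224 CPM) and highest in diabetic 2 (1701 CPM). Vascular markers were highest in control 1 (160 CPM), then in control 3 (83.7 CPM), and at 22.96 to 44.3 CPM in diabetic libraries. The part of these genes and cells in the levels of the members was not tested.

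The rest of the interferon pathway was read from a list of 77 genes, 73 of which had a row and 58 of which were tested. None passed an adjusted p of 0.05 in the quasi-likelihood test, and an unadjusted p below 0.05 was reached by 3 that were higher and 5 that were lower, against 8.94% and 10.0% of all genes. Without control 3 the count was 14 in place of 8, while the share of all genes, both directions together, was 19.37% in place of 18.95%. The genes added were all higher in diabetic libraries, so the split by direction turned on this library. The median log2 fold change over the 58 was -0.0026. By the DESeq2 Wald test Ifngr2, Jak1, Tlr7, Samd9l and Jak2 passed after adjustment, where 598 of 17822 genes did.

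Ligand RNA was scarce, and no interferon gene passed the filter. The interferon beta gene Ifnb1 had 31, 7 and 9 counts in controls 4, 5 and 6, and 1 and 8 in diabetic 1 and 5. It had 0 in controls 1 and 3 and in diabetic 2 and 4. The 0 in control 3 allows up to 0.265 CPM, taking 3 counts as the limit for counting error only. Ifng, Ifna2, Ifna4, Ifna5, Ifne and Ifnl3 had 0 of 84533787 counts over all libraries, which allows up to 0.0355 CPM, and Ifnk had 2.

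Of the receptors, Ifngr2 was higher in all 4 diabetic libraries. It was at 288, 278, 276, 277 and 266 CPM in controls and at 353, 318, 396 and 359 CPM in diabetic libraries, and its log2 fold change was 0.36 ± 0.11 (SE, edgeR quasi-likelihood adjusted p = 0.0895). Its partner Ifngr1 had a log2 fold change of 0.09. The type I receptor genes Ifnar1 (-0.01) and Ifnar2 (0.07) differed by less than their standard errors of 0.10 and 0.11.

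Of the kinases, Jak1, which serves both receptors, was lower in all 4 diabetic libraries than in any control. It was at 535, 523, 661, 595 and 615 CPM in controls and at 476, 438, 429 and 513 CPM in diabetic libraries (log2 fold change -0.34, SE 0.12, quasi-likelihood adjusted p = 0.123). Jak2 had a log2 fold change of -0.73 ± 0.27 (SE, edgeR quasi-likelihood adjusted p = 0.139), and Tyk2 of 0.03.

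Irf3, the factor that starts interferon production, had a log2 fold change of 0.47 ± 0.17 (SE, edgeR quasi-likelihood adjusted p = 0.126). Irf8, a lineage factor of microglia, was highest in controls 6 and 4 (2012 and 1735 CPM) and differed by -0.41 in log2 ± 0.32 (SE). The inhibitor gene Socs1 was below 3 CPM in every library. Tlr7, an endosomal receptor for single-stranded RNA, was at 381, 494, 493, 457 and 614 CPM in controls and at 308, 349, 243 and 347 CPM in diabetic libraries. The groups did not overlap, with a log2 fold change of -0.65 ± 0.19 (SE, edgeR quasi-likelihood adjusted p = 0.0895).

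Of 28 further interferon-induced genes that were tested, the antiviral gene Samd9l (-0.51, quasi-likelihood adjusted p = 0.122) and Trim21 (-0.38, adjusted p = 0.186) were lower at an unadjusted p below 0.05, and Ifi27l2b (1.595, adjusted p = 0.228) was higher. Samd9l was lower in all 4 diabetic libraries than in any control. Among the 58 tested pathway genes only Ifngr2 (higher) and Jak1, Tlr7 and Samd9l (lower) had groups without overlap. Of all genes, 4.27% were higher and 4.16% lower without overlap. Of the 28 further genes, 14 were highest in control 3 among controls and in diabetic 1 among diabetic libraries, against 4.95% of all genes. Of the 6 receptors, 9 kinases and factors, 5 negative regulators and 10 sensing genes, 2 did.

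In the authors' deposited table of the same comparison, 1 of the 35 members was listed at an adjusted p below 0.05, where 254 of 12069 genes were (2.11%). It was Gbp2, for which the authors' deposited table gives -1.98 as log2 fold change (adjusted p = 0.0229). As given above, Gbp2 was far higher in controls 4 and 6 (580.1 and 1038 CPM) than in any other library. The next members in the authors' deposited table were Cd274 (-2.93, adjusted p = 0.0621) and Isg15 (0.97, adjusted p = 0.157). At an unadjusted p below 0.05 the authors' deposited table held 4 members that were lower and 2 that were higher. Igtp, Gbp5 and Parp14 were not among them (p = 0.266, 0.0864 and 0.0536 in the authors' deposited table). The share of all genes at that threshold was not counted for the authors' deposited table, so these counts cannot be read as an excess. The pathway gene Ifi27l2b was higher there (1.71, adjusted p = 0.0317 in the authors' deposited table). Its fold changes differed by at most 0.057 from those of the edgeR fit without normalization factors, while the fit used above had TMM factors. Members had a median log2 fold change of -0.12 in the authors' deposited table and all its genes had 0.12, so the members lay about as far below the median of all genes there as in the quasi-likelihood fit.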

How the data were processed

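Raw counts per gene symbol for 9 libraries were deposited by the authors, with a comparison table holding log2 fold changes, p-values and adjusted p-values from the authors. Per the submitters' processing notes, bcl2fastq 2.18.0.12, TopHat2 2.0.14, StringTie 1.2.4 and edgeR were used. How reads were counted, and whether by strand, is not given in the sources used here, so overlapping genes may share counts. Positions and exon lengths come from the start and end columns (other values) of the deposited transcript assemblies on Rnor6, per the file headers, for the 24 members with a single locus.

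Genes were kept by filterByExpr (minimum count 10, minimum total 15) and tested with the quasi-likelihood test of edgeR 4.0.16 in R 4.3.3, with TMM factors, no covariates and Benjamini-Hochberg adjustment (threshold 0.05). Standard errors were derived from each log2 fold change and its p-value through the normal distribution. The common coefficient of biological variation was 0.251. No pair of libraries agreed within sampling noise. Alternatives were other factors and filters, DESeq2 1.42.0, limma 3.58.1 (voom), a replicate block and left-out libraries. The fitting script was tested on simulated data.

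The members and lists were chosen with earlier results of these data known. Values per library are given for members at an unadjusted p below 0.05, without overlap, among the 5 most abundant by mean CPM, or among the 5 with the widest control range. Those of other members were added after their values were seen. Pathway genes were a fixed set plus up to 8 by unadjusted p. One gene of the pathway list is not reported here by name.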

Additional observations from a re-analysis of the deposited data

Results flagged for a closer look

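In 11 of 100 sets of values (50 genes in 2 groups) 1 library stood apart from the rest of its group by Dixon's criterion. The criterion flags about 1 in 20 sets of independent, normally distributed values, which CPM values of related genes need not be. No share over all genes is given, so the count of 11 cannot be read as an excess. In 9 of the 11 sets the library was control 3. Mx2 was at 403.1 CPM there against 64.5 to 104 CPM in the other controls, Mx1 at 262.8 CPM against 54.2 to 101 CPM, and Ifit1 at 50.71 CPM against 8.57 to 19.2 CPM. Oas1a was at 13.2 CPM against 2.58 to 4.44 CPM, Usp18 at 42.02 CPM against 17.8 to 22.7 CPM, and Dhx58 at 99.33 CPM against 44.99 to 55.0 CPM. Ddx58 was at 43.15 CPM against 22.8 to 25.1 CPM, Ifi35 at 54.27 CPM against 41.6 to 44.0 CPM, and Parp9 at 188.2 CPM against 142 to 149 CPM.

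In the other 2 sets the library was diabetic 1, where Isg15 was at 41.12 CPM against 12.1 to 14.01 CPM for the rest of its group and Zbp1 at 28.57 CPM against 14.9 to 17.1 CPM. These genes are not independent, and each of the 11 values was the highest of its group.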

How the results depend on the processing

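No member passed the adjusted threshold under any of 18 alternatives, and the smallest adjusted p among them was 0.0828 (Gbp2, DESeq2). Members at an unadjusted p below 0.05 numbered 5, and 3 with upper-quartile factors, 2 without factors, 2 by limma-voom, 3 without controls 4 and 6, 4 with the replicate block (3 higher, 1 lower) and 2 to 7 with 1 library left out (2 without control 4, control 6, diabetic 2 or diabetic 4, 3 without diabetic 1, and 4 without diabetic 5, of which 2 were higher). The share of all genes at that threshold was 18.95% in the main fit, 18.48% with upper-quartile factors and 17.41% without factors. It was 17.69% by limma-voom, 14.91% without controls 4 and 6 and 9.61% with the block. With 1 library left out it ran from 12.78% (without diabetic 4) to 23.48% (without control 1, where 7 members were counted). Without factors the median of all genes moved to 0.12. The members' median log2 fold change ran from -0.316 (without diabetic 1) to 0.015 (without control 3), and was -0.103 with the replicate block. That block fit rests on numbers 1, 4 and 5, since control 3, control 6 and diabetic 2 have no partner of the same number. Without overlap there were 0 members with upper-quartile or no factors, and 1 to 4 with 1 library left out (4 without control 1, 3 without control 3, 2 without diabetic 1 or 5). With fewer libraries any gene is more easily free of overlap. The share of all genes was not counted under these settings, so the higher counts cannot be read as a gain for the members. Pathway genes at an unadjusted p below 0.05 numbered 7 to 14. The shared replicate numbers gave no clear pairing: the deviations of libraries 1, 4 and 5 correlated at 0.201, -0.114 and 0.0156, and only number 1 matched best with itself. So few values cannot decide whether libraries with the same number were handled together.

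Of 900 gene results under alternatives 848 kept their sign and side of the threshold, 46 changed sign and 6 newly passed, and 16 members kept their sign throughout. The cause was not tested. Without controls 4 and 6 the log2 fold change turned for Irf1 (0.50), Irf9 (-0.0078), Ifit2 (0.28), Trim25 (-0.13), Oas1a (-0.039), Oasl (0.16), Ifi44 (-0.079), Ifi47 (-0.067), Cd274 (0.38), Ifnar2 (-0.010), Ifngr1 (-0.098), Tyk2 (-0.10) and Irf8 (0.11). Oas1a turned by limma-voom (-0.035), Tyk2 with the replicate block (-0.00027), and Cmpk2 and Ifnar1 with upper-quartile factors (0.039, 0.059) and without factors (0.081, 0.096). With 1 library left out the lowest and highest values were -0.21 and 1.02 for Irf7, -0.53 and 0.015 for Dhx58, -0.036 and 0.46 for Zbp1, -0.16 and 0.98 for Ifit1, -0.32 and 0.39 for Ifit3, -0.12 and 0.59 for Usp18, -0.035 and 0.20 for Trim25, -0.85 and 0.27 for Mx1, -0.84 and 0.55 for Mx2, -0.28 and 1.04 for Oas1a, -0.32 and 0.11 for Cmpk2, -0.0084 and 0.32 for Bst2, -0.13 and 0.27 for Ifi44, -0.068 and 0.043 for Ifnar1, and -0.038 and 0.082 for Tyk2. By DESeq2 Ifngr2, Jak1, Tlr7, Samd9l and Jak2 passed (adjusted p 0.00525 to 0.0441), and Tlr7 passed without control 1 (-0.72, adjusted p = 0.0460, edgeR). Of all genes, 598 of 17822 passed by DESeq2 and 75 of 11608 without control 1, against 8 of 11748 in the main fit. Counting error is large for Oas1a (8 counts in diabetic 5), Socs1 (1 in diabetic 4) and the interferon genes.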
